A study of Arabidopsis thaliana with 12 samples.

Results

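The salt response of wild-type (WT) roots was taken as the difference between the WT arrays at 4 h and those at 0 h of 150 mM NaCl, 3 arrays on each side, so that 6 of the 12 arrays of the series make up the comparison. These 6 arrays were chosen by their labels of genotype and time, without any measured value. The gene lists used below were written with earlier results of these data known. All plants were 7-day-old Arabidopsis thaliana seedlings, WT being Col-0, kept in liquid medium with NaCl (150 mM) for 4 h, or for 0 h in the controls, before root RNA was taken. The other 6 arrays came from the mutant *agb1-3*, a mutant of the G protein beta subunit AGB1, under the same treatment. These 6 entered the estimate of the spread and the test of a difference between genotypes. They also entered the choice of the probes tested and of the brightest probe of a locus, which used all 12 arrays. The labels define the control as 0 h of treatment, while the study's methods describe it as 4 h in medium without NaCl, and a handling or time effect of the liquid medium therefore cannot be told apart from an effect of NaCl if the labels are right. The labels and the methods also name different RNA extraction and labeling kits, and a legend of the study speaks of whole seedlings where labels and methods speak of roots.

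Excess NaCl lowers the water potential around the root and brings sodium into its cells. Both are known to raise abscisic acid (ABA), a hormone whose receptors, when bound, hold back type 2C protein phosphatases (PP2C) and so free SnRK2 kinases to phosphorylate ABF transcription factors, which bind the promoters of genes for protective proteins and solutes. In roots the same conditions are known to slow elongation, to curb root hairs and to increase suberin, the waxy polymer around the endodermis.

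Levels are given throughout as the log2 signal of a gene's brightest probe minus the 75th percentile of its array, so that a value of 0 is the level that 75 percent of the spots did not exceed. Changes are log2 differences, 4 h minus 0 h, with the standard error of the fit (n = 3 arrays a side), and adjusted p-values are those of limma, corrected after Benjamini and Hochberg across the 25207 tested genes. To be called risen or fallen, a gene had to change 2-fold or more with an adjusted p under 0.05. The scanner software marks a signal clear of its surroundings as well above background, and 74.1% to 76.1% of each array's spots bore that mark. The 3 WT arrays at 0 h lay closer together (307 to 779 of 15330 bright probes differed over 1.5-fold in a pair) than those at 4 h (1300 to 3774). The *agb1* 0 h replicates 1 and 2 differed in 63 probes, by less than the sampling noise, while replicate 3 differed from them in 3429 and 3434, and the former were counted as 1 sample. The spread of 2 of the 3 WT pairs at 0 h was also below that noise, and these arrays were kept as separate samples. The level of AGB1 itself was 1.26 to 1.64 on the WT arrays and -0.10 to 0.88 on the *agb1* arrays, lower on all 6 but still well above background, and where its probe lies in the gene was not examined. The study's methods describe the 3 replicates as biological and independent. No source says whether the 3 arrays of a group came from separate cultures, so that the p-values measure the spread between these arrays. All 43 root cell type markers that were tested were well above background on every WT array, but so were 15 of 16 leaf and shoot markers, mostly genes of photosynthesis, with a summed scaled intensity of 19.6 to 26.2 at 0 h and 13.1 to 37.2 at 4 h. No leaf marker rose or fell, and the part of shoot RNA in any result was not tested.

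After 4 h of NaCl 1465 genes rose (5.81% of those tested) and 1006 fell (3.99%), together 9.8%. The response leaned to large rises, with 657 of the risen genes up at least 4-fold and 139 at least 16-fold, against 260 and 13 among the fallen. The median change of all genes was -0.10. On 189 risen genes no WT array at 0 h was well above background, and 85 fallen genes had no array well above background at 4 h. Without regard to fold, 2229 genes went up and 2835 went down at an adjusted p below 0.05, and the groups did not overlap in 17.7% of all genes with 4 h above and in 27.5% with 4 h below, which is the background for such a statement about a single gene. The calls leaned on single arrays, since leaving out WT 0 h replicate 3 gave 905 risen and 619 fallen genes, and leaving out WT 4 h replicate 2 gave 964 risen genes. The arrays lay on 4 slides. With slide as a fixed block and the 12 arrays as separate samples, 922 genes rose and 658 fell. On both slides that hold an array of each WT group, 1037 of the 1465 risen and 624 of the 1006 fallen genes differed at least 2-fold. The genes named below kept their call with each of the 12 arrays left out in turn unless stated otherwise, and where a gene lost its call without any of several arrays, the one that gave the highest adjusted p is named.

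**Figure D1:**
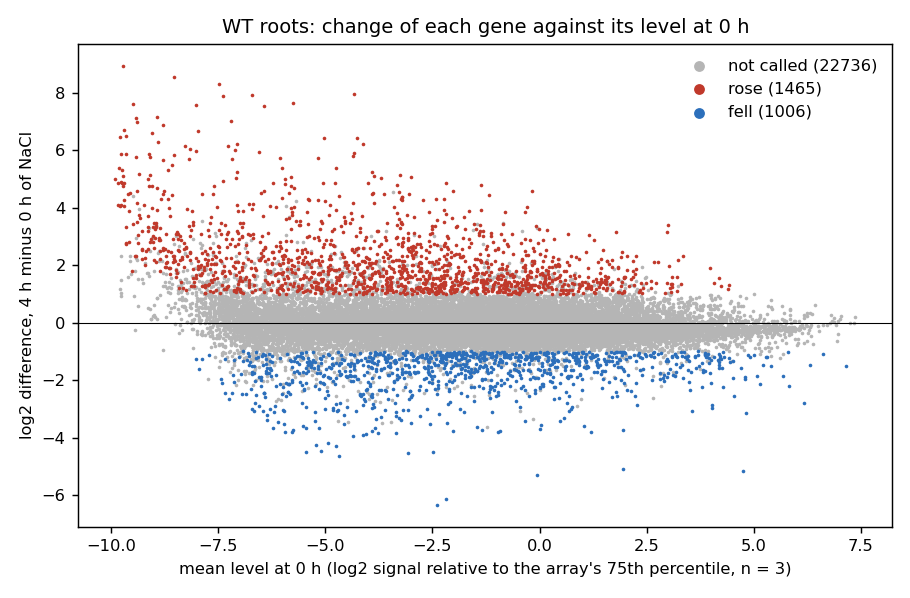
Change of every tested gene in WT roots (y axis, log2 difference, 4 h minus 0 h of NaCl) against its mean level at 0 h (x axis, log2 signal relative to the array's 75th percentile, mean of 3 arrays). Each point is a gene, red for the 1465 that rose, blue for the 1006 that fell and gray for the others. The largest rises lie among genes of low level at 0 h.

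Of the 12 largest rises among genes measurable on every WT array, 3 were on the list of late embryogenesis abundant (LEA) proteins. These are known to shield proteins and membranes during drying. LEA7 (AT1G52690) stood at -4.1, -4.54 and -4.38 on the 3 arrays at 0 h and at 2.85, 4.44 and 3.61 at 4 h, a change of 7.97 ± 0.37 (adjusted p = 1.35e-05). LEA4-5 (AT5G06760) moved by 7.54 ± 0.38 and EM1 (AT3G51810) by 5.93 ± 0.34, although another probe of EM1 gave 3.70. The ABA-related phosphatase HAI1 (AT5G59220) moved from -5.5, -5.59 and -6.18 to 1.06, 2.46 and 2.15, a change of 7.65 ± 0.39 (adjusted p = 2.01e-05). That the WT groups do not overlap was a condition for entering these 12, so nothing is read from it. The others with a name in the annotation used included TSPO (AT2G47770), a membrane protein that binds haem, at 6.44 ± 0.46. Named too were the homeodomain factor HB-12 (AT3G61890) at 6.43 ± 0.45 and the beta-glucosidase BGLU24 (AT5G28510) at 6.2 ± 0.85. The helix-loop-helix factor BHLH92 (AT5G43650) was at 5.9 ± 0.72 and the membrane protein DMP1 (AT3G21520) at 5.79 ± 0.74. Loci without a name there made up the rest, AT3G15670 at 7.91 ± 0.29, AT3G53960 at 7.03 ± 0.61 and AT5G24080 at 6.01 ± 0.3. Gene lists were matched by name, so that an unnamed locus may belong to a listed family, LEA proteins included.

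Genes not well above background at 0 h allow only a lower bound, computed as the mean at 4 h against, on each array at 0 h, the higher of the probe's own signal and the lowest signal among probes well above background. The highest bound was that of MYB121 (AT3G30210), an R2R3-MYB transcription factor, which rose at least 187-fold and read -0.32, 0.71 and -0.43 at 4 h. Next came the methyltransferase NAMT1 (AT5G04370) with at least 109-fold and GolS4 (AT1G60470), an enzyme of raffinose synthesis, with at least 66.6-fold. The phosphatase HAI2 (AT1G07430) rose at least 51.5-fold, the cytokinin response regulator RR16 (AT2G40670) at least 43.1-fold and the ERF transcription factor ESE1 (AT3G23220) at least 37.8-fold. ESE1 read -1.97, -2.49 and -2.51 at 4 h. The unnamed loci AT5G50360 and AT1G04560 had bounds of 55-fold and 48.4-fold. All 8 were on all 3 arrays at 4 h well above background and on none at 0 h.

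Within ABA signaling the receptors and the phosphatases that they hold back were called mostly in opposite directions. Of 9 clade A PP2C genes 8 rose and 0 fell (median change 2.21 against -0.10 over all genes), whereas of 11 tested receptors 5 fell and 1 rose (median -0.98). The receptor PYL6 (AT2G40330) read 0.45, 0.72 and 0.53 at 0 h and -2.12, -2.86 and -3.28 at 4 h, a change of -3.32 ± 0.27 (adjusted p = 0.000158), with no overlap of the groups. PYL2 (AT2G26040) fell by 1.39 on the log2 scale, and PYL5 (AT5G05440) (-1.88) and PYL4 (AT2G38310) (-1.2) were called too, but PYL5 missed the threshold without WT 4 h replicate 2 (adjusted p = 0.0717), and the change of PYL4 came to -0.99, under 2-fold, without WT 4 h replicate 2. The count of 5 fallen receptors became 3 if any one array at 0 h was left out and 2 if WT 4 h replicate 2 was. One receptor went the other way, PYL7 (AT4G01026) at 2.55 ± 0.51 (adjusted p = 0.00949).

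Beside HAI1 and HAI2, HAI3 (AT2G29380) of the same ABA-induced group changed by 7.58 ± 0.51, being well above background on 1 array at 0 h. ABI2 (AT5G57050) changed by 2.46 ± 0.29 and PP2CA (AT3G11410) by 2.21 ± 0.23, from 0.84, 1.04 and 0.87 at 0 h to 2.87, 3.5 and 3.01 at 4 h. In the SnRK2 kinase family 1 of 10 genes rose (10%, beside 5.81% of all genes) and the median change was 0.45. The risen gene, SNRK2-8 (AT1G78290) at 2.19 ± 0.6, missed the threshold without WT 0 h replicate 3 (adjusted p = 0.122). OST1 (AT4G33950), an SnRK2 best known from guard cells, was at -0.9 ± 0.31 (adjusted p = 0.0686). Among 10 ABF transcription factors and AFP repressors of ABA responses, 6 rose, AFP1 (AT1G69260) at 3.36 ± 0.27, AFP3 (AT3G29575) at 1.58 ± 0.22, ABF3 (AT4G34000) at 1.36 ± 0.11 and ABF2 (AT1G45249) at 1.21 ± 0.21 among them. ABF3 read 1.66, 1.75 and 1.55 at 0 h and 2.89, 3.15 and 3.01 at 4 h, a small spread at both times.

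For the hormone itself, NCED3 (AT3G14440), which catalyzes the step known to limit ABA synthesis, read -4.64, -4.63 and -4.96 at 0 h and 0.22, 1.52 and 0.21 at 4 h, a change of 5.39 ± 0.32 (adjusted p = 3.74e-05). The 3 arrays at 4 h were all above 0 and those at 0 h all below -4. Of 7 synthesis genes 1 more rose, the zeaxanthin epoxidase ABA1 (AT5G67030), at 1.62 ± 0.25. Of 4 ABA hydroxylases, which break the hormone down, 2 were called, CYP707A1 (AT4G19230) at 1.17 ± 0.28 and CYP707A4 (AT3G19270), which was not well above background at 0 h and rose at least 3.4-fold, and both missed the threshold with single arrays left out (adjusted p = 0.0733 without WT 4 h replicate 2 for CYP707A1 and 0.11 without WT 0 h replicate 3 for CYP707A4). Under normexp background correction CYP707A4 changed by -1.31.

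**Figure D2:**
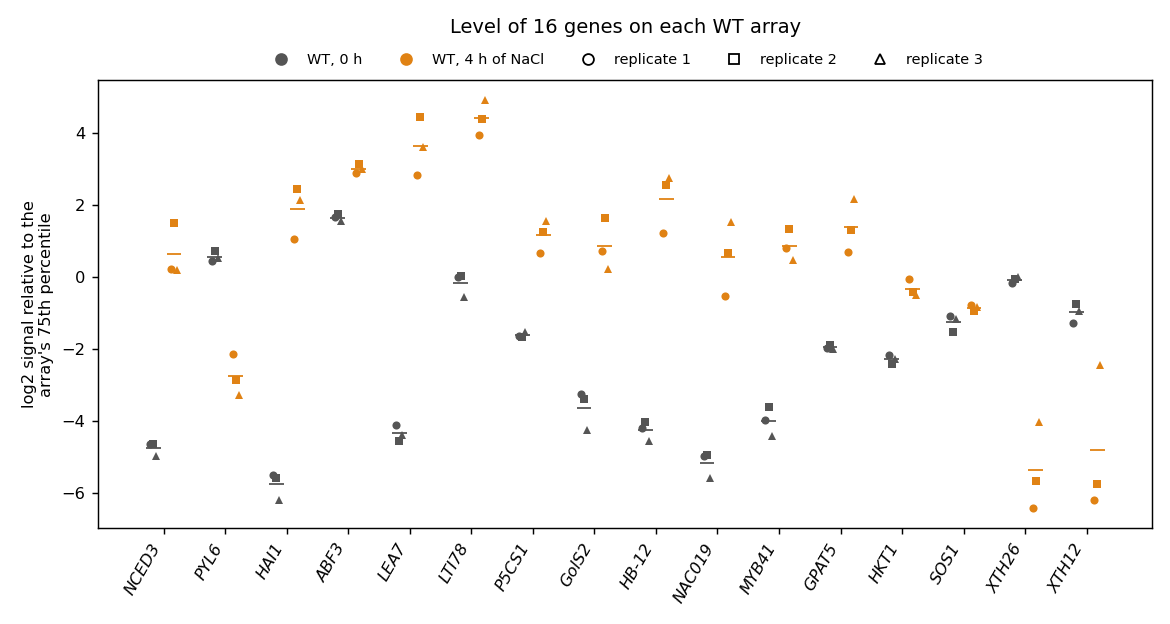
Level of 16 genes on each of the 6 WT arrays (y axis, log2 signal relative to the array's 75th percentile), gray for 0 h and orange for 4 h of NaCl, with a symbol for each replicate and a bar at the mean of 3. The groups do not overlap for any of the 16, the sodium exporter gene SOS1 being the one with the smallest gap and no call. The 16 were picked for display, and nothing is read from this. Over all genes the groups did not overlap in 17.7% with 4 h above and in 27.5% with 4 h below.

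Of 20 genes commonly used as markers of drying and of ABA 14 rose and 0 fell (median 2.36). LTI78 (AT5G52310), also known as RD29A, read 0.01, 0.03 and -0.54 at 0 h and 3.94, 4.4 and 4.91 at 4 h, a change of 4.58 ± 0.43 (adjusted p = 0.000326). RD20 (AT2G33380), a caleosin that binds calcium, was not well above background at 0 h and rose at least 34.6-fold. HVA22B (AT5G62490) changed by 4.77 ± 0.41 and LTI65 (AT5G52300), also known as RD29B, by 3.19 ± 0.36 from a level at which 2 of 3 arrays were well above background and with a change of -0.18 under normexp background correction. Of 21 LEA genes 13 rose and 0 fell (median 2.11), ECP63 (AT2G36640) among them at 7.88 ± 0.48 with 1 array well above background at 0 h, and COR15A (AT2G42540), whose protein protects chloroplast membranes in the cold, rose at least 18.8-fold.

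Compatible solutes are small molecules that cells accumulate to hold water, such as proline and raffinose. P5CS1 (AT2G39800), the first enzyme of proline synthesis, read -1.64, -1.66 and -1.52 at 0 h and 0.67, 1.27 and 1.56 at 4 h, a change of 2.77 ± 0.25 (adjusted p = 0.000247), and was the 1 of 4 proline synthesis genes called. The proline dehydrogenase ERD5 (AT3G30775), which degrades proline, was at -0.79 ± 0.56 (adjusted p = 0.345), and its groups overlapped. The proline transporter PROT2 (AT3G55740) rose by 1.39 ± 0.27. In the raffinose pathway 4 of 8 tested genes rose and 1 fell, with GolS2 (AT1G56600) at 4.49 ± 0.38 and the raffinose synthase SIP1 (AT5G40390) at 1.97 ± 0.21. The fallen one, the stachyose synthase STS (AT4G01970), was at -1.12 ± 0.35 and missed the threshold without WT 4 h replicate 2 (adjusted p = 0.161).

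**Figure D3:**
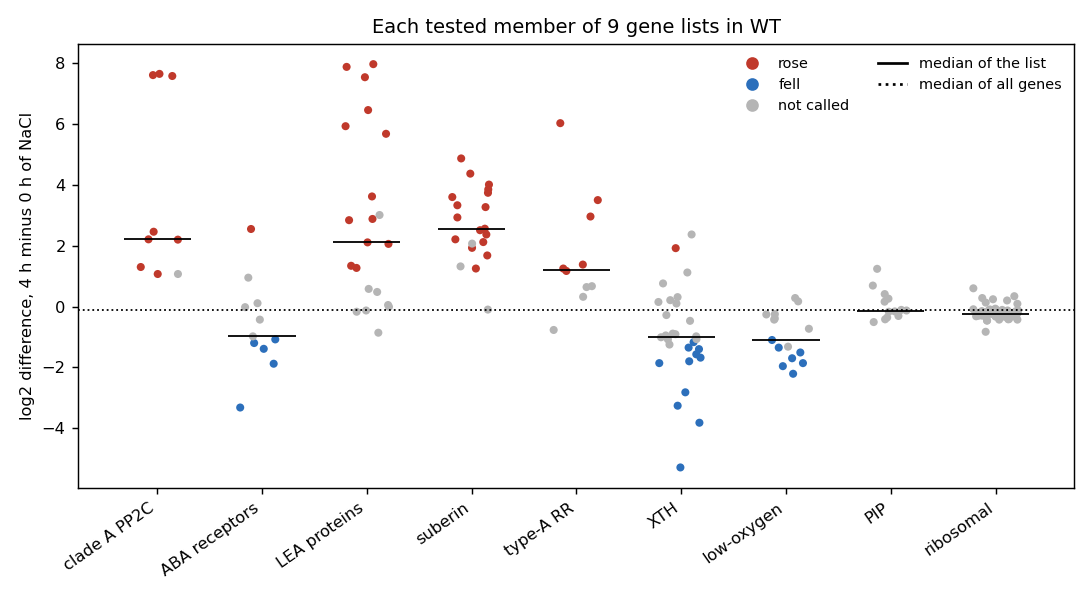
Change of each tested member of 9 gene lists in WT (y axis, log2 difference, 4 h minus 0 h), red for risen, blue for fallen and gray for not called, with a bar at each list's median and a dotted line at the median of all genes, -0.10. The PP2C, LEA and suberin lists have medians of 2.21, 2.11 and 2.54, while the PIP aquaporins and ribosomal proteins lie around -0.13 and -0.23.

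Of 764 transcription factors tested 134 rose (17.5%, beside 5.81% of all genes) and 31 fell. R2R3-MYB factors held 34 risen of 90, NAC factors 20 of 82, ERF and DREB factors 18 of 71, HD-Zip factors 8 of 38 and WRKY factors 11 of 63. In bZIP factors 10 of 56 rose, in bHLH factors 10 of 81 and in MADS factors 1 of 38. The risen count for ERF and DREB was 11 and 10 without WT 0 h replicates 2 and 3, and that for HD-Zip was 5 without either. The bHLH and bZIP counts were 6 without WT 0 h replicate 3, the bZIP count also without WT 4 h replicate 2, and 19 factors fell without WT 0 h replicate 3.

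The HD-Zip genes HB-12 and HB-7 (AT2G46680), a pair known to respond to drought and ABA, both rose. HB-12 read -4.18, -4.03 and -4.54 at 0 h and 1.23, 2.56 and 2.75 at 4 h, while HB-7 changed by 3.93 ± 0.25, and HB21 (AT2G18550) of the same class changed by 4.99 ± 0.67. Among 8 NAC factors grouped for their known stress response 6 rose. NAC019 (AT1G52890) read -4.97, -4.95 and -5.59 at 0 h and -0.53, 0.68 and 1.53 at 4 h, RD26 (AT4G27410) changed by 4.02 ± 0.42 and ATAF1 (AT1G01720) by 2.12 ± 0.41. The cold-response factor DREB1A (AT4G25480) changed by 4.25 ± 0.42 and CBF1 (AT4G25490) by 2.34 ± 0.44, while DREB2A (AT5G05410), a factor of the drought response, was at 1.57 ± 0.56 (adjusted p = 0.0776). Of these 9 cold and dehydration DREB genes 4 rose, a count of 7 without WT 4 h replicate 3 and of 2 without any one of the other 5 WT arrays.

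Further factors with large rises were MYB79 (AT4G13480), at least 22-fold, MYB47 (AT1G18710), at least 12.2-fold, the heat shock factor HSFA6B (AT3G22830) at 4.87 ± 0.47 and MYB41 (AT4G28110) at 4.87 ± 0.38. HSFA6B read -2.3, -2.12 and -2.12 at 0 h and 2.34, 3.97 and 1.76 at 4 h. No heat shock protein gene was called (31 tested), although 3 of 19 heat shock factors rose. Of the 31, 5 were at least 2-fold above the 0 h mean on WT 4 h replicate 1. On replicate 3, 8 were at least 2-fold below it and 3 above. WRKY71 (AT1G29860) changed by 3.72 ± 0.21, WRKY28 (AT4G18170) by 2.98 ± 0.33 and the zinc finger factor ZFP5 (AT1G10480) by 3.12 ± 0.24.

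The 10 largest falls among called transcription factors were smaller, from -2.18 to -1.73. BNQ3 (AT3G47710), a helix-loop-helix protein without a DNA-binding region, read -2.48, -2.31 and -2.31 at 0 h and -4.3, -4.42 and -4.94 at 4 h. HAT1 (AT4G17460), an HD-Zip factor, changed by -1.97 ± 0.17, the cytokinin response factor CRF1 (AT4G11140) by -1.96 ± 0.24, and MYB28 (AT5G61420), a factor that activates aliphatic glucosinolate synthesis, by -1.85 ± 0.37. WRKY72 (AT5G15130) changed by -1.73 ± 0.29. AGL39 (AT5G27130) and LBD21 (AT3G11090) were not well above background at 4 h, with bounds of at least 1.39-fold and 2.38-fold lower. PIF7 (AT5G61270) (-1.83), LBD40 (AT1G67100) (-1.78) and GATA23 (AT5G26930) (-1.75) missed the threshold when 1 array was left out, with adjusted p-values up to 0.104, 0.143 and 0.0604.

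**Figure D4:**
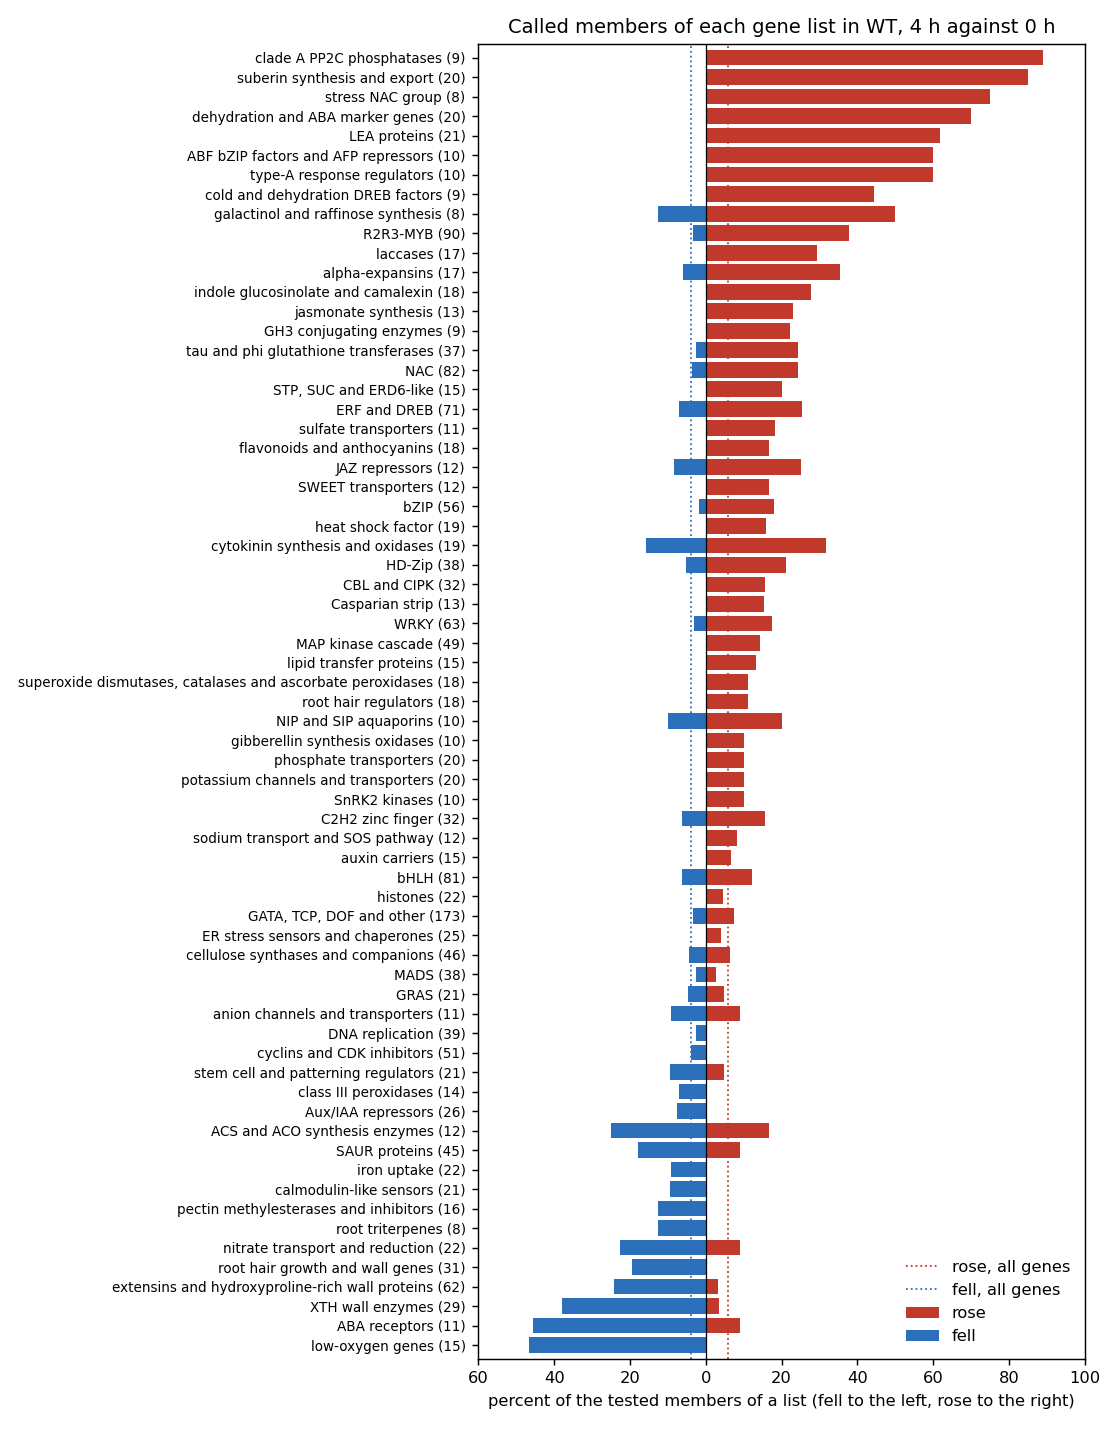
Percent of the tested members of each gene list that rose (red, to the right) or fell (blue, to the left) in WT, for lists with at least 8 tested and at least 1 called member, the number tested in parentheses. Dotted lines mark the share over all genes, 5.81% risen and 3.99% fallen. The PP2C and suberin lists stand at the top, the low-oxygen and ABA receptor lists at the bottom.

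Most suberin genes rose. Of 20 tested genes for suberin synthesis, export and regulation 17 rose and 0 fell (median 2.54). Under normexp background correction 10 rose. The glycerol acyltransferase GPAT5 (AT3G11430) read -1.96, -1.88 and -1.98 at 0 h and 0.7, 1.3 and 2.16 at 4 h, a change of 3.33 ± 0.42 (adjusted p = 0.00133), and GPAT7 (AT5G06090) changed by 4.37 ± 0.53. Chain elongation, export and regulation were all represented, by the ketoacyl-CoA synthase KCS2 (AT1G04220) at 4.01 ± 0.37, the transporter ABCG6 (AT5G13580) at 3.85 ± 0.45, and the factors MYB41 and MYB107 (AT3G02940) at 3.74 ± 0.46. The median change of the list on single arrays at 4 h was 1.79, 2.7 and 3.37 in replicates 1 to 3, where LEA genes had 2.02, 2.26 and 2.02.

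The other endodermal barrier, the Casparian strip, changed less. Of 13 genes 2 rose, CASP4 (AT5G06200) at 1.76 ± 0.29 and CASP5 (AT5G15290) at 1.28 ± 0.31, and CASP5 missed the threshold without WT 0 h replicate 3 (adjusted p = 0.0724). CASP1 (AT2G36100), a scaffold protein of the strip, was at -0.06 ± 0.27 (adjusted p = 0.901). Endodermis markers, which include these 3 genes, had a summed scaled intensity of 39.7 to 43.4 at 0 h and 43.9 to 54.1 at 4 h. Laccases, some of which polymerize lignin, held 5 risen of 17, LAC12 (AT5G05390) at 5.03 ± 0.74, LAC5 (AT2G40370) at 2.71 ± 0.48 and LAC7 (AT3G09220) at 1.4 ± 0.23 among them, and the count was 3 without any one array at 0 h.

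The 12 largest falls were likewise taken from genes measurable on every WT array with no overlap of the WT groups. Of them, 4 were in the cell wall list, XTH26, XTH12, FLA6 and EXPA12. The xyloglucan endotransglucosylase XTH26 (AT4G28850), known from root hairs, read -0.17, -0.05 and 0.0 at 0 h and -6.41, -5.66 and -4.01 at 4 h, a change of -5.29 ± 0.57 (adjusted p = 0.000592). XTH12 (AT5G57530) read -6.19, -5.74 and -2.45 at 4 h and FLA6 (AT2G20520), an arabinogalactan protein, -5.43, -4.71 and -0.91, both highest on WT 4 h replicate 3. Their changes of -3.82 ± 0.95 and -3.69 ± 1.03 were called over all 6 arrays and missed the threshold with single arrays left out, with adjusted p-values of 0.085 and 0.118 without WT 4 h replicate 2. The expansin EXPA12 (AT3G15370) changed by -3.72 ± 0.58, sks9 (AT4G38420), related to multicopper oxidases, by -3.56 ± 0.56, the copper protein UCC3 (AT3G60280) by -3.77 ± 0.61 and CWLP (AT3G22120), which links the wall to the membrane, by -3.8 ± 0.23. Of 4 probes of CWLP the weakest change was -0.40, so that its probes disagree.

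AT5G19890 read 4.68, 4.78 and 4.75 at 0 h and -0.46, -0.36 and -0.43 at 4 h, a change of -5.15 ± 0.27 (adjusted p = 2.1e-05) with hardly any spread at either time. AT3G29970 read -1.78, -2.28 and -5.44 at 4 h after a mean of 1.94 at 0 h. The organic cation transporter OCT3 (AT1G16390) changed by -3.6 ± 0.44, SK10 (AT3G21860), a subunit of ubiquitin ligases, by -3.54 ± 0.49 and AT5G07570 by -3.62 ± 0.34. Of the 8 with the highest bounds, not well above background at 4 h, AT4G00130 was at least 37.1-fold lower, PPT2 (AT3G01550), a plastid phosphoenolpyruvate carrier, at least 7.66-fold and ACS9 (AT3G49700), an enzyme of ethylene synthesis, at least 6.4-fold. The other 5 were the unnamed loci AT1G15125, AT3G46340, AT4G11393, AT2G29000 and AT2G19210, with bounds from 5.32-fold to 7.64-fold.

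Wall genes moved by family. Of 29 XTH genes 11 fell and 1 rose (median -1.01), a count of 6 without WT 0 h replicate 3. XTH33 (AT1G10550) changed by -2.82 ± 0.48 and XTH13 (AT5G57540) by -3.26 ± 0.69, the latter with an adjusted p of 0.0504 without WT 4 h replicate 2. Extensins and other hydroxyproline-rich proteins held 15 fallen and 2 risen of 62, with 6 to 8 fallen when any one WT array other than 4 h replicate 3 was left out. Alpha-expansins, which loosen walls, went mostly the other way, 6 risen and 1 fallen of 17, with EXPA8 (AT2G40610) at 3.19 ± 0.37 and EXPA1 (AT1G69530) at 2.3 ± 0.45. EXPA1 read 0.0, 0.06 and 0.31 at 0 h and 1.93, 2.65 and 2.7 at 4 h. The cellulose synthase CESA1 (AT4G32410) was at -0.18 ± 0.2 (adjusted p = 0.536).

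Root hair genes differed widely between the 3 arrays at 4 h. Of 31 genes for root hair growth and walls, 6 fell and 0 rose (median -1.01), among them XTH26, XTH12, XTH13 and the proline-rich wall protein PRP3 (AT3G62680). Against the mean at 0 h, the median of the list was -1.25 on WT 4 h replicate 1, -1.45 on replicate 2 and -0.12 on replicate 3, and 18, 20 and 4 of its genes were at least 2-fold lower on these arrays. The fallen count was 18 without WT 4 h replicate 3 and 1 or 2 without any one of the other 5 WT arrays. PRP3 read -1.73, -1.64 and 0.9 at 4 h after a mean of 1.46 at 0 h, and its adjusted p was 0.11 without WT 4 h replicate 2. The 9 root hair and epidermis markers, of which 1 fell, moved in the same manner, with medians of -1.83, -1.97 and 0.02 on the 3 arrays and a summed scaled intensity of 11.7 to 13.0 at 0 h and 4.64 to 14.4 at 4 h. Leaf and shoot markers had medians of 0.76, 0.30 and -0.74 on the same arrays. In RNA of whole roots fewer cells of a type and less RNA per cell cannot be told apart. Among regulators of root hair fate and growth, RSL4 (AT1G27740), the factor that sets hair length, was at -0.27 ± 0.43 (adjusted p = 0.687) and 2 of 18 rose.

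**Figure D5:**
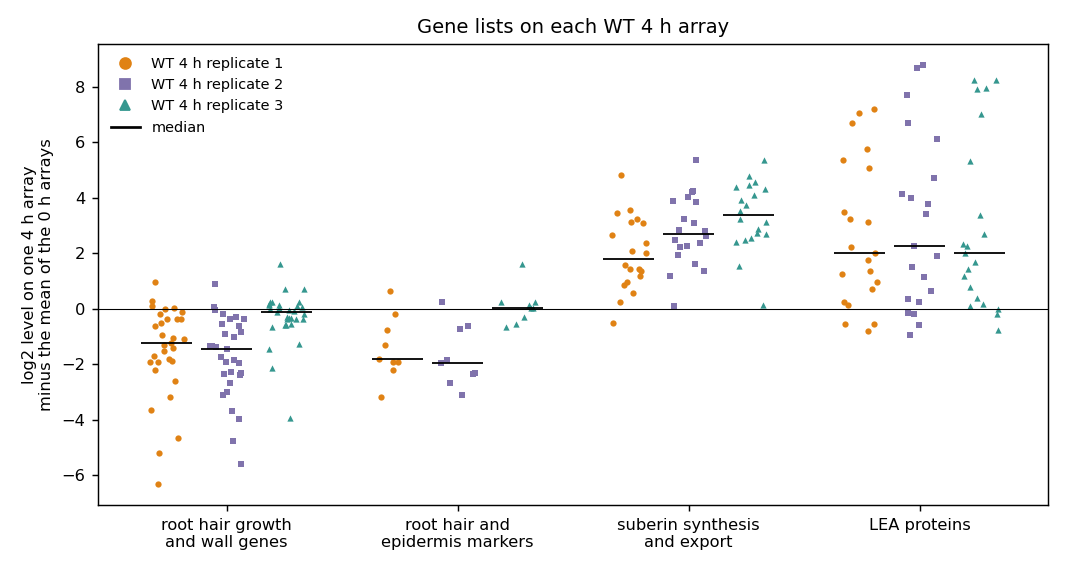
Level of each tested member of 4 lists on each WT 4 h array minus its mean over the WT 0 h arrays (y axis, log2), with a color and symbol for each replicate and a bar at the median. In both root hair lists replicate 3 stays near 0 while replicates 1 and 2 lie lower, whereas all 3 arrays rise in the suberin and LEA lists.

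Of all 55 ion transport genes tested 7.3% rose and 1.8% fell, and of 31 water channels 6.5% and 3.2%, beside 5.81% and 3.99% of all genes. Of 12 genes of sodium transport and the SOS pathway 1 rose, HKT1 (AT4G10310), which takes sodium back out of the xylem. It read -2.16, -2.4 and -2.26 at 0 h and -0.04, -0.42 and -0.5 at 4 h, a change of 1.95 ± 0.2 (adjusted p = 0.00048). The sodium exporter SOS1 (AT2G01980) was at 0.4 ± 0.16 (adjusted p = 0.106), its 3 arrays at 4 h at -0.77, -0.95 and -0.84. Of 20 potassium transport genes 2 rose, the outward channel GORK (AT5G37500) at 1.87 ± 0.32 being measurable on all arrays, and of 11 anion transport genes the vacuolar nitrate exchanger CLC-A (AT5G40890) rose by 1.52 ± 0.18 and SLAH1 (AT1G62280) fell by 1.73 on the log2 scale (adjusted p = 0.0657 without WT 0 h replicate 3). No proton pump of 12 was called.

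Among water channels none of 13 plasma membrane and none of 8 vacuolar aquaporins was called, with medians of -0.13 and -0.18. PIP2A (AT3G53420) was at -0.17 ± 0.26 (adjusted p = 0.682). Of 10 other aquaporins, the NIP and SIP families, 2 rose and 1 fell. The fallen gene was NIP2;1 (AT2G34390), a channel known to respond to low oxygen, which read 3.43, 3.8 and 3.46 at 0 h and 1.28, 0.62 and -0.47 at 4 h, a change of -3.08 ± 0.67 (adjusted p = 0.0138), with an adjusted p of 0.0505 without WT 0 h replicate 2.

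Hormone genes other than those of ABA moved in several directions. Cytokinin response regulators of type A, whose expression is a usual readout of cytokinin signaling, held 6 risen of 10 (median 1.21). ARR7 (AT1G19050) read -1.77, -2.73 and -1.91 at 0 h and 0.72, 1.42 and 0.33 at 4 h, a change of 2.96 ± 0.48, and ARR6 (AT5G62920) and ARR4 (AT1G10470) changed by 1.38 ± 0.2 and 1.25 ± 0.21. Among genes that make or degrade cytokinin, LOG5 (AT4G35190) and LOG1 (AT2G28305), which release the active form, rose by 4.05 ± 0.57 and 3.24 ± 0.27, CKX6 (AT3G63440), an oxidase, by 1.98 ± 0.33, and the synthesis gene IPT3 (AT3G63110) went from -1.17, -1.47 and -0.73 to -3.41, -3.29 and -3.36, a change of -2.23 ± 0.22. In all 6 of these 19 genes rose and 3 fell, with 3 risen without WT 0 h replicate 1 or 2.

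Ethylene synthesis showed rises and falls in the same enzyme family. ACS2 (AT1G01480) rose by 2.54 ± 0.25, while ACS9 fell, and the oxidase ACO1 (AT2G19590) went from 3.74, 3.68 and 3.96 to 1.33, 1.35 and 1.99, a change of -2.23 ± 0.26. For jasmonate, the lipoxygenase LOX3 (AT1G17420) rose by 3.41 ± 0.37 (another of its probes gave 0.57) and the repressor JAZ5 (AT1G17380) by 1.95 ± 0.29, in lists where 3 of 13 synthesis genes and 3 of 12 JAZ genes rose. These small counts ranged from 1 to 5 when 1 array was left out, the synthesis count being 1 if WT 4 h replicate 2 or either of replicates 2 and 3 at 0 h was omitted. The JAZ count was 1 if WT 0 h replicate 3 was omitted and 5 if *agb1* 4 h replicate 1 or replicate 3 of WT at 4 h was. Of 26 Aux/IAA repressors of auxin responses 2 fell (7.7%) and 0 rose, IAA6 (AT1G52830) at -1.39 ± 0.21 and IAA31 (AT3G17600) at -1.27. IAA31 missed the threshold without WT 4 h replicate 2 (adjusted p = 0.122). Of 45 SAUR genes, small auxin-induced proteins, 8 fell (17.8%) and 4 rose (8.9%), a risen count of 2 without WT 0 h replicate 1 or 2. Over all genes 3.99% fell and 5.81% rose, so nothing is read from the Aux/IAA count or the SAUR rises. The auxin-conjugating enzyme GH3.17 (AT1G28130) rose by 1.29 ± 0.21. Gibberellin genes had 1 call in 15, a rise (6.7%, near the share of all genes).

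The MAP kinase genes that rose were mostly MAPKKK genes, the first tier of the cascade. Of 49 cascade genes 7 rose (14.3%, beside 5.81% of all genes) and 0 fell, and the 5 largest were MAPKKK genes. MAPKKK18 (AT1G05100), known to act downstream of ABA, read -4.07, -4.15 and -4.19 at 0 h and -0.58, 0.22 and -0.96 at 4 h, a change of 3.7 ± 0.39 (adjusted p = 0.000558). MAPKKK17 (AT2G32510) changed by 3.69 ± 0.34 and MAPKKK21 (AT4G36950) by 3.62 ± 0.49, within 1 standard error of it. Of 32 calcineurin B-like sensors and their CIPK kinases 5 rose (15.6%), all of them kinases, with CIPK19 (AT5G45810) at 2.71 ± 0.42 and CIPK16 (AT2G25090) at 1.99 ± 0.38. Of 21 calmodulin-like sensors 2 fell (9.5%, beside 3.99% of all genes), CML42 (AT4G20780) at -1.64 ± 0.24 among them. The other, CAM8 (AT4G14640) at -1.44, missed the threshold without WT 4 h replicate 2 (adjusted p = 0.141).

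Genes that handle reactive oxygen were called mainly among glutathione transferases, where 9 of 37 rose and 1 fell, with GSTU5 (AT2G29450) at 2.19 ± 0.29 and GSTU6 (AT2G29440) at 2.13 ± 0.34. The count was 3 to 5 without any one WT array other than 4 h replicate 1. Catalases CAT3 (AT1G20620) at 1.61 ± 0.44 and CAT1 (AT1G20630) at 1.36 ± 0.3 (another of its probes gave 3.51) were 2 calls in 18 scavenging enzymes, and their adjusted p-values reached 0.11 and 0.0542 with 1 array left out. The oxidase RBOHD (AT5G47910) was at -0.43 ± 0.39 (adjusted p = 0.464). In the unfolded protein response of the endoplasmic reticulum 1 of 25 genes was called, BZIP49 (AT3G56660), which was not well above background at 0 h and rose at least 2.73-fold, but changed by -1.54 under normexp background correction. The sensor BZIP17 (AT2G40950) was at -0.22 ± 0.18 and BZIP60 (AT1G42990) at 0.16 ± 0.2 (adjusted p = 0.417 and 0.614), and the chaperone BIP3 (AT1G09080) was at 0.81 ± 0.73 (adjusted p = 0.461).

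Of 15 genes known to be induced by low oxygen 7 fell and 0 rose (median -1.1). The sucrose synthase SUS4 (AT3G43190) read 5.85, 5.63 and 5.94 at 0 h and 4.15, 3.85 and 2.8 at 4 h, a change of -2.21 ± 0.43 (adjusted p = 0.00833), and the pyruvate decarboxylase gene PDC1 (AT4G33070) changed by -1.86 ± 0.38. Both kept their call with any array left out, but the count was 3 or 4 without any one array at 0 h and 3 without WT 4 h replicate 2. The hemoglobin HB1 (AT2G16060) (-1.51 ± 0.34) and the alcohol dehydrogenase ADH1 (AT1G77120) (-1.1 ± 0.33) reached adjusted p-values of 0.0583 and 0.126 that way. On single arrays at 4 h the list's median was -0.76, -0.93 and -1.26.

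Nitrogen and iron genes fell in part. The nitrite reductase NIR1 (AT2G15620) read 4.83, 4.63 and 4.9 at 0 h and 2.78, 2.6 and 3.36 at 4 h, a change of -1.88 ± 0.2 (adjusted p = 0.000594), and the ammonium transporter AMT1;3 (AT3G24300) changed by -1.32 ± 0.18. In all 5 of 22 nitrogen genes fell and 2 rose, a fallen count of 3 without any one array at 0 h or WT 4 h replicate 2. All 22 iron genes had changes below 0 (median -0.75), and 2 of them fell, both nicotianamine synthases. These were NAS3 (AT1G09240) at -3.03 ± 0.41 and NAS2 (AT5G56080) at -2.09, and NAS2 missed the threshold without WT 4 h replicate 2 (adjusted p = 0.132). The median of the 22 against the 0 h mean was -0.10 on WT 4 h replicate 1, -1.16 on replicate 2 and -1.58 on replicate 3. The iron transporter IRT1 (AT4G19690) was at -1.64 ± 1.34 (adjusted p = 0.412).

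None of 57 ribosomal protein genes was called (changes from -0.83 to 0.6), none of 56 genes of light harvesting and photosystems and none of 20 clock genes. Arrays disagreed on the 56, with medians against the 0 h mean of 0.74, 0.35 and -0.63 on WT 4 h replicates 1 to 3. On replicate 1, 16 of them were at least 2-fold higher, and on replicate 3, 14 were at least 2-fold lower. At an unadjusted p below 0.05, limma passed 8935 of all 25207 genes, so that a gene without a call may still have changed. Its change may be under 2-fold, or larger with too wide a spread. DREB2A at 1.57 and IRT1 at -1.64 (limma adjusted p = 0.0776 and 0.412) were of the latter kind. Of 112 genes of the cell cycle, DNA replication and histones 3 fell and 1 rose, with 91 below 0 and a median of -0.4. CDC45 (AT3G25100), a replication factor, was at -1.26 ± 0.17, and the risen one, the linker histone HIS1-3 (AT2G18050), known to respond to drought, was at 2.17 ± 0.28. None of 9 G protein genes was called, with AGB1 (AT4G34460) at -0.12 ± 0.19 (adjusted p = 0.685).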

How the data were processed

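The deposited files are scanner output of 1-color Agilent arrays, and the authors' Feature Extraction software (9.1 in the submitters' processing notes, 10.7.1.1 in the file headers) had subtracted background to give the processed intensity used here. From the deposited intensity the log2 value minus each array's 75th percentile over non-control spots was computed, outlier spots (2 to 28 an array) and control spots were left out, and spots of a probe were averaged. Of 43603 probes 34358 were named through RefSeq (25433 loci), the brightest kept probe standing for a locus and an unmatched probe for itself. Probe sequences were not used, so that close paralogs may share signal. Probes well above background on all 3 arrays of at least 1 group were tested, 25207 in all.

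All 12 arrays entered one limma fit (3.58.1, R 4.3.3) with 4 groups. The *agb1* 0 h replicates 1 and 2 differed by less than the sampling noise (spread 0.0836 against 0.149 expected from repeated spots) and were counted as 1 sample. At WT 0 h the pairs 1 and 3 (0.152 against 0.233) and 2 and 3 (0.22 against 0.244) were also below it, but differed over 1.5-fold in 558 and 779 probes against 63, and stayed separate, with an added alternative. Scripts were tested on simulated data. Named genes were the 12 largest rises and falls measurable on all WT arrays with no overlap of the WT groups. Added were the 8 highest bounds each way and the 10 largest rises and falls of transcription factors. So were up to 5 called and the key members of each of 36 lists (87 roles, 2415 loci). The lists and this naming rule were written with earlier results of these data known. Lists were matched by gene symbols and synonyms, so that unnamed loci of a family may be missing from its list. Alternatives covered background, scaling, filters, probes, samples, slide, replicate number, test and threshold.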

Additional observations from a re-analysis of the deposited data

Results flagged for a closer look

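The change in *agb1* differed from that in WT at an adjusted p below 0.05 (limma interaction, Benjamini-Hochberg over 25207 genes) in 12 of the 301 genes that the naming rule picked and in 45 of all genes (0.179%). Many of the 301 were picked for their change in WT, and the difference reuses those WT arrays, so nothing is read from the 12. None of the 12 passed with slide as a fixed block. Differences are *agb1* minus WT on the log2 scale, and both *agb1* 0 h arrays with nearly equal values entered as 1 sample.

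In 5 genes with a rise in WT the change in *agb1* was lower. For ESE1 it was 0.8 in *agb1* and 7.11 in WT, a difference of -6.31 ± 0.5 (adjusted p = 0.00487). ESE1 was not well above background on any WT array at 0 h and ECP63 on only 1, so that their differences rest in whole or in part on signals at the background. ECP63 differed by -5.45 ± 0.72 (adjusted p = 0.0279), LOX3 by -4.02 ± 0.55 (0.0296), HAI1 by -3.86 ± 0.58 (0.0497) and IGMT2 (AT1G21120) by -1.99 ± 0.21 (0.0183). Of these 5, HAI1 rose in *agb1* too, by 3.78 (adjusted p = 0.00658).

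In 7 genes with a fall in WT the change in *agb1* was higher. PPT2 differed by 4.82 ± 0.56 (adjusted p = 0.0183), AT4G11393 by 4.22 ± 0.43 (0.0183), CWLP by 3.13 ± 0.34 (0.0183) and AT5G19890 by 3.08 ± 0.4 (0.0264). The ABA receptor PYL6 differed by 2.74 ± 0.41 (0.0469), AGL39 by 2.53 ± 0.29 (0.0183) and TAC1 (AT3G09290), a zinc finger factor, by 1.32 ± 0.18 (0.0296). PPT2, AT4G11393 and AGL39 were not well above background on any WT array at 4 h, so that their differences too rest on signals at the background. AT5G19890 fell in *agb1* too (-2.07, adjusted p = 0.0137). The number of these genes ranged from 1 to 22 when 1 array was left out and was 1 without any one WT array at 0 h. Groups of 3 were not tested for single arrays that stand apart.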

How the results depend on the processing

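Settings other than those named here left the counts of 1465 risen and 1006 fallen genes within 1.5 times. With normexp background correction 411 rose and 483 fell, the median of all genes moved from -0.10 to -0.31, with the cause not tested. LTI65 changed by -0.18, CYP707A4 by -1.31 and BZIP49 by -1.54, the reverse of their main values. The 134 risen transcription factors became 43, with 0 WRKY (11 in the main setting) and 9 R2R3-MYB (34). Risen suberin genes went from 17 to 10, LEA genes from 13 to 6 and markers of drying and ABA from 14 to 8. Risen clade A PP2C genes went from 8 to 6. In all 31 of 301 rule-named genes reversed and 114 lost their call. Slide as a fixed block gave 922 and 658, array weights 2325 and 1780, and an adjusted p below 0.01 gave 807 and 543. Counting WT 0 h replicates 1 and 3 as 1 sample, chosen after seeing the data because they lay close together, gave 983 and 658, and 624 of the fallen genes were at least 2-fold lower within both slides that hold both WT groups. Leaving out 1 array gave 905 to 1531 risen and 619 to 1159 fallen, lowest without WT 0 h replicate 3.

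The 12 differences between genotypes became 0 with normexp and with slide as a fixed block, and 5 with probes well above background on every array. There was 1 with WT 0 h replicates 1 and 3 as 1 sample, and 49 with 12 separate arrays, with slide as a random block and with array weights. The fits with slide or replicate number as a block also took *agb1* 0 h replicates 1 and 2 as separate samples, so 49 rather than 12 is their reference. The estimated correlation of arrays on a slide rounded to 0, so the random block hardly differed from 12 separate arrays. Leaving out 1 array gave 1 to 22. The cause was not tested except where stated. The replicate number as a block gave 1486 risen and 1045 fallen genes and 31 differences between genotypes. Arrays with the same number correlated by 0.21, 0.09 and 0.19 in their deviations, each highest with its own number, and the number nearly coincides with the slide: all arrays of replicate 1 lay on slide 1, of replicate 3 on slide 3, and of replicate 2 on slide 4 except WT 0 h on slide 2. Among called rule-named genes 101 of 265 kept their call under every setting. Motifs in promoters, planned, were not run, since no sequence table was at hand. With 3 arrays a side, precision is limited by their number and, for dim probes, by the background.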

Other observations

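Sugar and sulfate transporters, which the comparisons above do not cover, held some of the larger rises. SWEET4 (AT3G28007), a sugar transporter, was not well above background at 0 h and rose at least 35.7-fold, reading -3.37, -2.18 and -1.66 at 4 h. SWEET13 (AT5G50800) changed by 2.13 ± 0.4, so that 2 of 12 SWEET genes rose, and of 15 other sugar carriers the sucrose transporter SUC2 (AT1G22710) of the phloem (1.87 ± 0.19), the hexose importer MSS1 (AT5G26340) (1.91 ± 0.33) and ESL1 (AT1G08920) (1.55 ± 0.23) rose, a count of 5 without WT 4 h replicate 3. The phloem markers, SUC2 included, had a summed scaled intensity of 3.97 to 4.53 at 0 h and 5.55 to 6.18 at 4 h. Of 11 sulfate transporters SULTR3;4 (AT3G15990) changed by 4.78 ± 0.39 and SULTR3;1 (AT3G51895) rose at least 18.4-fold.

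Genes of indole glucosinolate and camalexin synthesis held 5 risen of 18, among them the methyltransferases IGMT1 (AT1G21100) (1.47 ± 0.23) and IGMT2 (1.44 ± 0.14), a count of 2 without any one array at 0 h, WT 4 h replicate 2 or WT 4 h replicate 3, and of 3 without *agb1* 4 h replicate 3. Of 18 genes for flavonoids 3 rose, the phenylalanine ammonia lyase PAL4 (AT3G10340) at 2.07 ± 0.3 among them, and 1 did without any one array at 0 h or WT 4 h replicate 2. Of the root cap markers, the NAC factors FEZ (AT1G26870) (-1.5 ± 0.39) and SMB (AT1G79580) (-1.0 ± 0.2) fell, and the summed scaled intensity of the 4 markers was 1.84 to 2.12 at 0 h and 1.32 to 1.46 at 4 h. FEZ missed the threshold without WT 0 h replicate 3 (adjusted p = 0.0915), and SMB was not called without WT 0 h replicate 3, WT 4 h replicate 2 or WT 4 h replicate 3, with a change as small as -0.92. The markers of stele and pericycle summed to 13.6 to 14.9 at 0 h and 9.05 to 10.5 at 4 h, and those of xylem to 16.0 to 17.5 and 16.6 to 17.9.

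Rises alone were called in 2 of 7 trehalose phosphate phosphatases, 2 of 15 lipid transfer proteins, 2 of 9 GH3 enzymes, 2 of 20 phosphate transporters and 1 of 15 auxin carriers. Falls alone were called in 2 of 16 pectin methylesterases and inhibitors, 1 of 14 class III peroxidases matched by name and 1 of 8 root triterpene genes. The fallen triterpene gene went against its list, which had a median of 1.71 and 7 of 8 genes above 0. The median of that list was -0.14, 1.76 and 3.16 on WT 4 h replicates 1 to 3. Both directions occurred in cellulose synthases (3 risen and 2 fallen of 46), C2H2 factors (5 and 2 of 32) and GRAS factors (1 and 1 of 21). They also occurred in the remaining transcription factor families (13 and 6 of 173) and patterning regulators (1 and 2 of 21). Over all genes 5.81% rose and 3.99% fell. Auxin carriers (6.7% risen), cellulose synthases (6.5% and 4.3%) and GRAS factors (4.8% and 4.8%) lay near these shares, so nothing is read from their counts. Without WT 0 h replicate 2, WT 0 h replicate 3 or WT 4 h replicate 2 the risen counts were 1 for cellulose synthases and 3 for C2H2 factors, and without WT 4 h replicate 3 the fallen count of the remaining families was 11. No member was called in beta-expansins (6 tested), NADPH oxidases (5) or the SRO family (6).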
